A study of Mus musculus with 34 samples.

Results

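Min6 and aTC, long-cultured mouse lines of pancreatic β and α cells, were compared with fresh pancreatic cells by the DNA methylation of their CpG islands. The comparison took 5 of the 34 arrays of the series, 2 of cell lines (1 each of Min6 and aTC) and 3 of fresh material (1 of β cells taken ex vivo and replicates 1 and 2 of whole pancreas). Min6 derives from a mouse insulinoma and aTC from a mouse glucagonoma, so each line comes from a tumour and stands for a single lineage of cultured cells. The β cells came from hand-picked islets of adult Pdx1-GFP transgenic mice, freed with collagenase and sorted with an insulin antibody, while the whole pancreas, which is mostly exocrine tissue, came from male mice of 3 months. No treatment is named for any of these samples, and the mouse DNA of the study is described as C57Bl/6. The donors of the lines, and whether the pancreas replicates are separate animals, are not given in the sources used here. Neighbouring probes no more than 500 bases apart were joined to an island, which had to hold 3 or more of them on each of the 5 arrays. Without X and Y this gave 13374 islands with a median of 5 probes over 655 bases, 11641 of them named by the array's annotation.

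CpG islands are stretches rich in the dinucleotide CG that lie at most promoters. In normal somatic cells nearly all of them are free of methyl groups, apart from sets such as imprinted and germline genes, and islands near developmental transcription factors are held silent by polycomb proteins without methylation. Established cell lines and tumours are known to carry methyl groups at many such islands. In methylated DNA immunoprecipitation (mDIP) an antibody against 5-methylcytidine pulls down methylated fragments, and the log ratio of bound (Cy5) to input (Cy3) DNA is read per probe. The value given here is the island Z-score, the mean over an island's probes of the log10 ratio standardised over all probes of an array. It is relative to the other probes of that array, and by the levels used in the study an island below 0 was taken as unmethylated and one above 0.75 as methylated. Each array averages over all DNA of its sample, so that a middle value from few highly methylated cells and one from many partly methylated cells cannot be told apart.

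The promoters below are those whose islands show the main patterns of the comparison. They give the 250 bases before the start of the gene, 5′ to 3′ on the strand of the gene, from RefSeq on GRCm38.p6, with every CG, the dinucleotide that can be methylated, in capitals. Foxd3, Twist1 and Hhex were high in both lines and low in fresh cells, Pdx1 was high in aTC only, and Sst and Piwil1 were lower in both lines.
Foxd3: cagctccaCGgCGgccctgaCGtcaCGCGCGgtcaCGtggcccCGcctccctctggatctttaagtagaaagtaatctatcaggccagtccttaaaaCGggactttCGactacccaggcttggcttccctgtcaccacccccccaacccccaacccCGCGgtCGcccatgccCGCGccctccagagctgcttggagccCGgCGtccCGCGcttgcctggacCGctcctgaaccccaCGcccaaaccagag
Twist1: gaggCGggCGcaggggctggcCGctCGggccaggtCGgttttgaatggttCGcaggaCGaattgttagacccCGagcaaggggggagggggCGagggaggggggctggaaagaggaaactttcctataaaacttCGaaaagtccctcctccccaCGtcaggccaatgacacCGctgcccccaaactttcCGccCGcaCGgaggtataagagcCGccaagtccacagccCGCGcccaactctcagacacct
Hhex: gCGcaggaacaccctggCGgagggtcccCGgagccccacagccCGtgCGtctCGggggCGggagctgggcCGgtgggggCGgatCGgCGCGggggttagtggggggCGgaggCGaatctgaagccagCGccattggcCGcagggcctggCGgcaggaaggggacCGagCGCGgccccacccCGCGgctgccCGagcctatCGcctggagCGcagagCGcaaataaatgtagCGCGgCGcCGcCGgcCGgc
Pdx1: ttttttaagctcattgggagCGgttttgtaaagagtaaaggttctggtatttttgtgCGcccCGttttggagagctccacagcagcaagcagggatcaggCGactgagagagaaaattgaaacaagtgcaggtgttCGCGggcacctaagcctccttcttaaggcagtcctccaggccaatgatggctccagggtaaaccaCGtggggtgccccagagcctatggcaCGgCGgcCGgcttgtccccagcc
Sst: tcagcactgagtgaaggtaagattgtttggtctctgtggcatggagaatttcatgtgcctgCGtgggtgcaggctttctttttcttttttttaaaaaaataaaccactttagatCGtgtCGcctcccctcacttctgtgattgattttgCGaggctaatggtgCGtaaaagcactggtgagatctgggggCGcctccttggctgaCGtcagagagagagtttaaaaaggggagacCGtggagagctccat
Piwil1: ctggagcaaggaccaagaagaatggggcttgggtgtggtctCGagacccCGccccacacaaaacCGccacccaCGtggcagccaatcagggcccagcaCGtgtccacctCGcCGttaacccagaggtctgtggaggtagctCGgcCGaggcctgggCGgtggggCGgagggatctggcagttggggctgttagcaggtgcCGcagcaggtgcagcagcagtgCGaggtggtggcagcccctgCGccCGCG
These 6 promoters hold between 8 (Sst) and 32 (Hhex) CG dinucleotides in 250 bases, against a median of 6 over the 32851 promoters of the same table. Their positions are chr4:99656049-99656298 (plus strand, Foxd3), chr12:33957421-33957670 (plus strand, Twist1), chr19:37434591-37434840 (plus strand, Hhex), chr5:147269847-147270096 (plus strand, Pdx1), chr16:23890845-23891094 (minus strand, Sst), and chr5:128735996-128736245 (plus strand, Piwil1). The probes lie on mm9, a different build, so promoters and islands were joined by gene symbol and only where the array's annotation puts a probe within 250 bases before to 50 after the start.

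The lines had about 2 times as many islands above 0.75 as fresh pancreatic cells, but fewer above 2. Islands above 0.75 made up 19.9% of the islands in Min6 and 23.4% in aTC, against 12.1% in ex vivo β cells, 10.4% in pancreas 1 and 12.1% in pancreas 2. Both lines were above all 3 fresh arrays, by 10.1 percentage points on average (fresh mean 11.5 ± 1.01 SD, n = 3, p = 0.1 in a two-sided exact permutation test, the smallest that 10 splits of 2 against 3 arrays allow). Islands above 2 made up 4.85% in Min6 and 1.82% in aTC, against 5.01% to 7.27% in fresh cells (exact p = 0.2, n = 2 and 3). At the other end, islands below 0 made up 65.2% in Min6, 61.9% in aTC, 61.6% in β cells, and 69.6% and 68.3% in pancreas 1 and 2, so that the groups overlapped (exact p = 0.5, n = 2 and 3). The middle range from 0 to 0.75 held 14.9% and 14.7% of the islands in the lines and 19.5% to 26.3% in fresh cells (exact p = 0.1, n = 2 and 3). The mean over all islands was 0.0039 in Min6 and -0.0011 in aTC, and 0.034, 0.045 and 0.034 on the β cell and pancreas arrays, a difference of -0.036 (exact p = 0.1, n = 2 and 3). This mean is held near 0 by the standardisation and changed sign under 3 other processings, so no direction is read from it.

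**Figure D1:**
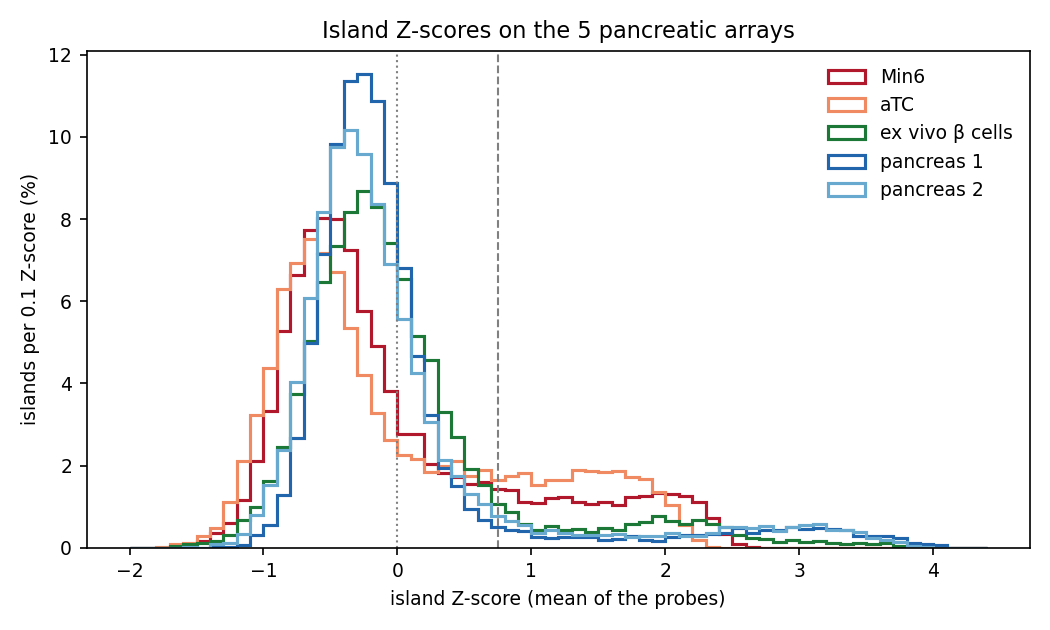
Distribution of island Z-scores (x axis) as the percent of 13374 islands per bin of 0.1 (y axis), 1 line per array, with the levels 0 (dotted) and 0.75 (dashed). Min6 and aTC hold more islands between 0.75 and 2.2 than the fresh arrays, and their scores end at 2.64 and 2.41 whereas those of fresh cells reach 4.03 to 4.26.

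The arrays of the lines differ from the pancreas arrays in more than the cells. Min6 and aTC shared a slide, and were scanned on the same day and with the same software as the β cells, whereas the pancreas arrays were scanned on 2 other days with another version and a larger grid of probes (97651 against 88737). The share of probes with a bound signal well above background was 84% and 92.2% in the lines, 84.8% in β cells and 74.8% and 74.8% in pancreas 1 and 2. The SD of the log10 ratios, by which each array is divided, was 0.535 and 0.56 in the lines, 0.339 in β cells and 0.415 and 0.508 in pancreas. The part of these differences in the results was not tested, and values within the shared scan day are given below as lines against β cells. Over all islands, Min6 and aTC correlated with r = 0.867, the fresh arrays with each other with r = 0.858 to 0.936, and a line with a fresh array with r = 0.6 to 0.74 (a description over islands, which are not independent).

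Island by island, 1175 were higher and 453 lower in the lines at a Benjamini-Hochberg adjusted p under 0.05 (limma, 2 against 3 arrays). They are 8.79% and 3.39% of all islands tested, and 4597 islands had an unadjusted p under 0.05, of which 2095 were higher and 2502 lower, the opposite balance. The median difference over all islands, lines minus fresh cells, was -0.20, and 33.9% of the islands had a positive difference. The p-values rest on the spread between the lines and among the β cells and pancreas, and they measure only differences among these 5 samples. Both lines lay above all fresh arrays at 2475 islands (18.5% of all) and below all of them at 5332 (39.9%). The higher islands had a median of 1.17 in Min6, 1.22 in aTC, -0.095 in β cells, and -0.27 and -0.23 in pancreas 1 and 2. Both lines were above 0.75 at 809 of them, and all 3 fresh arrays were below 0 at 595. The lower islands were of another kind, with medians of 0.75 in Min6, 1.16 in aTC, 2.17 in β cells, and 2.35 and 2.45 in pancreas. At 224 of the 453 lower islands both lines were still above 0.75, and at 58 all 3 fresh arrays were already below 0. Of all calls 72.2% were higher, a split that moved to 51.8% with normexp background correction (1356 higher and 1261 lower) and to 81.3% with a Z-score from medians.

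**Figure D2:**
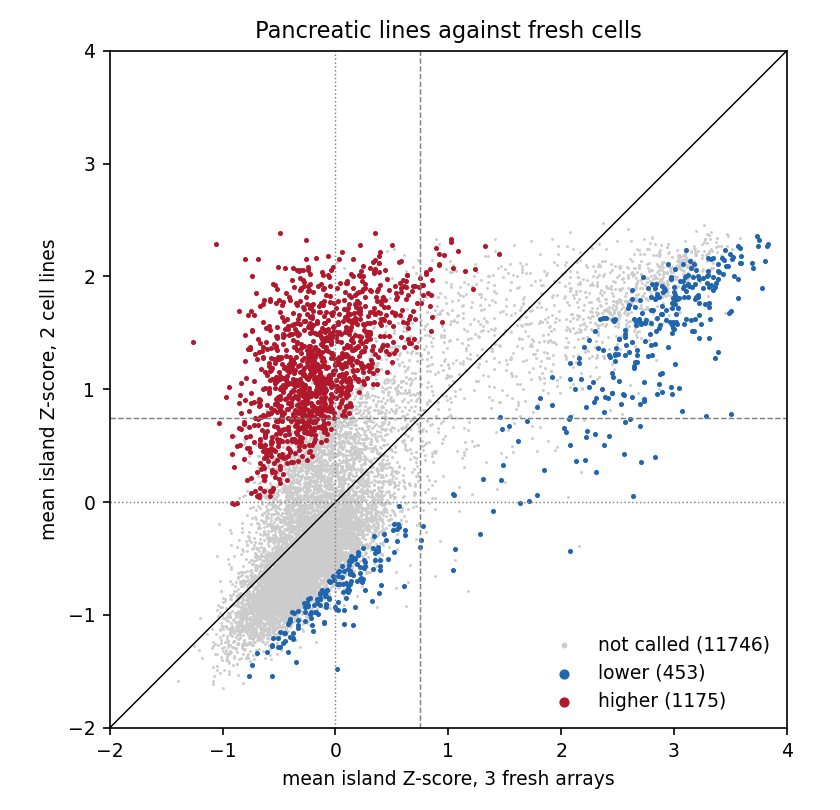
Mean island Z-score of the 2 cell lines (y axis) against that of the 3 fresh arrays (x axis) for 13374 islands, coloured by the limma call (adjusted p under 0.05), with the diagonal and the levels 0 (dotted) and 0.75 (dashed). The 1175 higher islands sit mostly at fresh values below 0, whereas many of the 453 lower islands lie at fresh values above 2 and line values between 1 and 2.

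A rule of levels was also applied, which needs no estimate of the spread. An island was counted as gained when it was below 0 on all 3 fresh arrays and above 0.75 in both lines, and as lost in the reverse case. By this rule 293 islands were gained (2.19% of all) and 3 were lost (0.0224%). Since the rule asks every array to pass, leaving arrays out can only keep or raise these counts. The size of the rise differed between arrays. Without Min6 641 were gained, and without the β cells 464 were gained and 16 lost. There were 23 lost without aTC, and 6, 6 and 5 lost without Min6, pancreas 1 and pancreas 2. Of the 6759 islands below 0 on all fresh arrays, 4.33% were gained. By arm means, 725 of the 9141 islands that were below 0 in fresh cells were above 0.75 in the lines, and 18 of the 1447 above 0.75 in fresh cells were below 0 in the lines. The 3 lost islands lie in Slc1a3, a glutamate transporter of glia, in Tecta, a protein of the inner ear, and at an island of chromosome 13 that carries no gene name.

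The number of calls depended on the pancreas arrays. With the scan day as a block, which leaves the lines against the β cells alone (2 arrays against 1), limma called 0 islands (2480 at an unadjusted p under 0.05), while the level rule gave 382 gained and 42 lost islands against the β cells. With the spread estimated over all 34 arrays, the lines differed from the β cells at 970 higher and 536 lower islands, among them 807 of the 1172 higher and 162 of the 440 lower islands that this fit could test. Without pancreas 1 or 2 the higher islands numbered 557 and 547, without aTC 759, and the lower islands ranged from 106 to 1102 when any array was left out.

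Among 11 islands with the largest rise, most belong to regulators of development. Cdkn2a encodes the cell cycle inhibitors p16Ink4a and p19Arf, and its island within the gene (chr4:88922488-88922864, mm9) was at 2.44 in Min6, 2.14 in aTC, -1.65 in β cells, and -0.56 and -0.98 in pancreas 1 and 2. Every fresh array lay far below both lines, and the difference of 3.35 ± 0.32 (SE, adjusted p = 0.0031) was the largest of all called islands with a gene name. This island has only 3 probes. Their bound signal was well above background at 5 spots on the 3 fresh arrays and at 6 on the 2 lines. Foxd3, a forkhead factor of the neural crest, had an island over its start (chr4:99322690-99324814, 16 probes) at 2.13 in Min6, 2.03 in aTC, -0.48 in β cells, and -0.48 and -0.58 in pancreas 1 and 2. The SD of the fresh arrays was 0.0591, and the difference was 2.59 ± 0.15 (SE, adjusted p = 0.0022). Pou3f3, a POU factor of the developing brain, was at 2.24 in Min6, 2.08 in aTC, -0.60 in β cells, and -0.88 and -0.58 in pancreas 1 and 2. Dbx1, a homeobox factor of the spinal cord, was at 2.31 in Min6, 1.70 in aTC, -0.85 in β cells, and -0.86 and -0.50 in pancreas 1 and 2. For both genes the groups were well apart, with differences of 2.84 ± 0.18 (SE, adjusted p = 0.0022) and 2.74 ± 0.24 (SE, adjusted p = 0.0028). Tbx18, a T-box factor of mesenchyme, rose by 2.48, Hoxa4 by 2.46, and Msx1, a homeobox factor of limb and face, by 2.43. The other members of this set are Shisa6, which binds glutamate receptors (2.56), Calb2, the calcium-binding protein calretinin (2.55), Gas7, expressed on growth arrest (2.53), and Galk1, which phosphorylates galactose (2.44). At all 11 the lines were above 1.2 and the fresh arrays below 0.

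**Figure D3:**
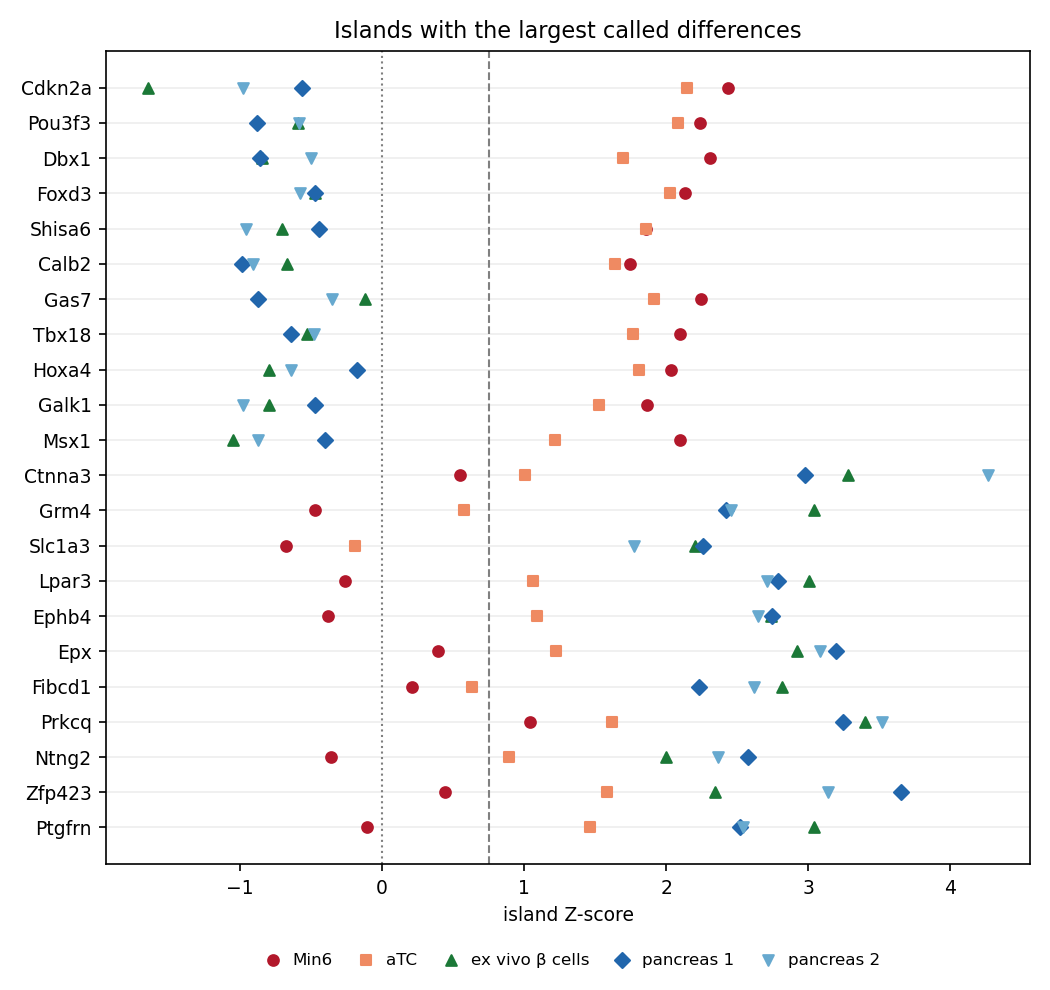
Island Z-scores (x axis) of 11 named islands with the largest positive and 11 with the largest negative called difference (y axis, by gene), 1 point per array, with the levels 0 (dotted) and 0.75 (dashed). At the upper 11 islands both lines are right of 1.2 and the fresh arrays left of 0, and at the lower 11 the fresh arrays are right of 1.7 while Min6 and aTC differ between themselves.

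Transcription factor families of development held a larger share of higher islands than the table as a whole. Of 26 islands at Sox genes 13 were higher (50%), of 46 at T-box and Gata genes 19 (41.3%), of 306 at homeobox genes outside the Hox clusters 121 (39.5%), of 67 at Hox genes 25 (37.3%) and of 63 at Forkhead genes 20 (31.7%), beside 8.79% of all islands. Factors with a neural bHLH domain stood lower, with 10 of 56. Together these 6 lists make up 4.2% of the islands and 17.5% of the higher ones, and 7 of their 562 islands were lower. Of their 283 islands below 0 on all fresh arrays 87 were gained by level (30.7%), against 3.18% of the islands outside these lists. The median difference was 0.85 for Sox genes, 0.76 for T-box and Gata genes, 0.73 for other homeobox genes and 0.64 for Hox genes, where that of all islands was -0.20. These lists were chosen with earlier results of these data known, and their median difference was positive under every scaling tried.

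**Figure D4:**
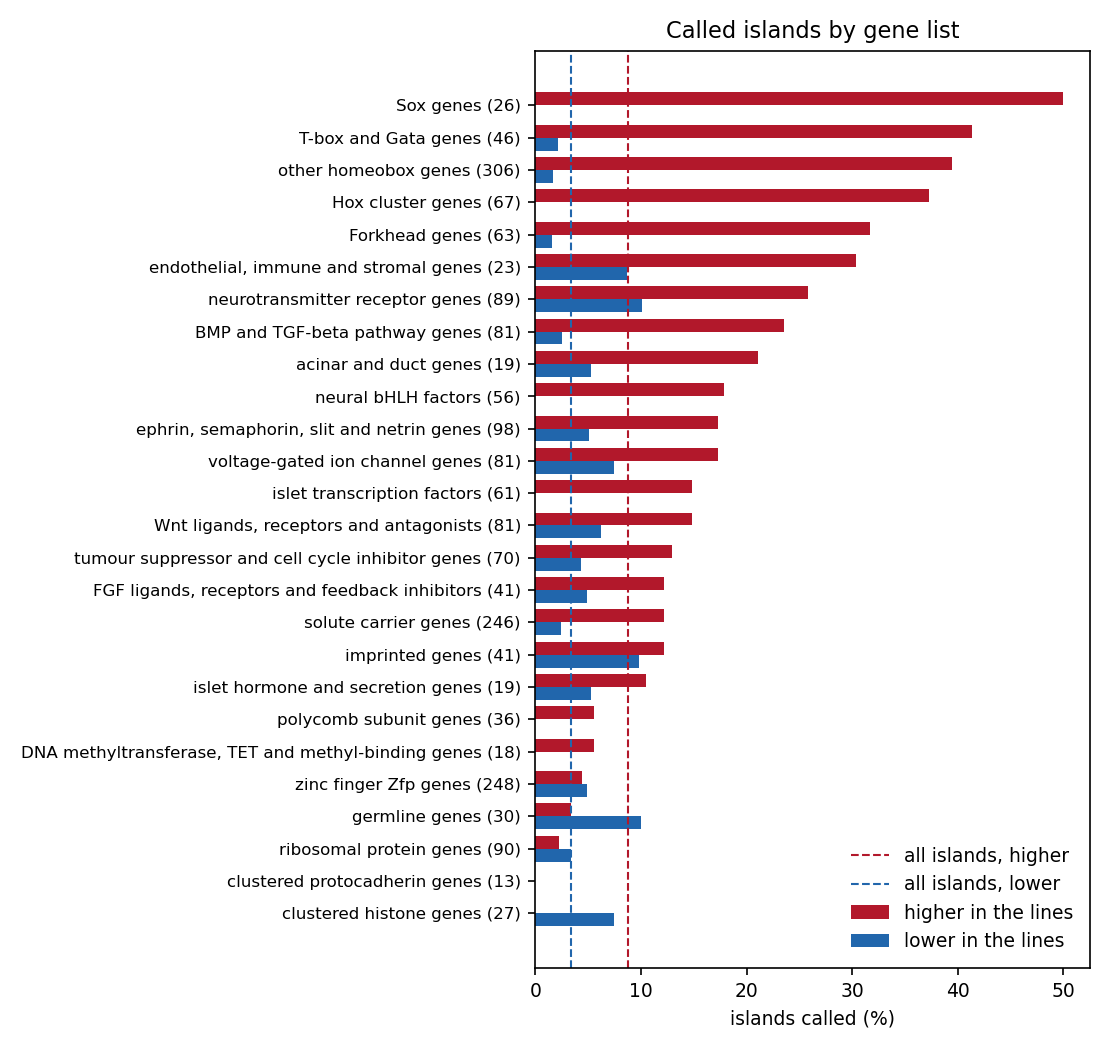
Percent of islands called higher (red) or lower (blue) in the lines (x axis) for 26 gene lists (y axis, number of islands in brackets), with the percent over all islands as dashed lines (8.79% and 3.39%). Sox, T-box and Gata, homeobox, Hox and Forkhead genes have the longest red bars, from 31.7% to 50%, and ribosomal protein, clustered protocadherin and clustered histone genes the shortest.

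The Hox genes, which pattern the body axis, had higher islands in all 4 clusters, with larger shares in Hoxa and Hoxd than in Hoxb and Hoxc. Over the 15 islands of the Hoxa cluster the mean was 0.76 in Min6, 0.68 in aTC, -0.51 in β cells, and -0.16 and -0.30 in pancreas, and 8 islands were called higher. In the Hoxd cluster (17 islands) the means were 0.68, 0.75, -0.29, -0.041 and -0.085 in the same order, with 9 higher. Hoxb and Hoxc had 4 higher islands of 18 and 4 of 17, and no Hox island was lower. The island between Evx2 and Hoxd13, at the distal end of its cluster, was at 1.99 in Min6, 1.96 in aTC, -0.21 in β cells, and -0.41 and -0.23 in pancreas 1 and 2. Hoxd11 rose by 2.20 and Hoxa11 by 2.00, both genes of limb and kidney development. All 4 islands of Evx2, of Lhx2, which acts in forebrain and eye, and of Pitx1, which specifies the hindlimb, were higher, as were 5 of 6 of Tbx1, a regulator of the pharyngeal arches. These 4 genes were picked after their values were seen, among 103 genes with at least 2 higher islands.

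Other called members of these families show the same pattern. Foxe1, a thyroid factor, was at 1.73 in Min6, 1.63 in aTC, -0.47 in β cells, and -0.57 and -0.43 in pancreas 1 and 2. Foxc2, of blood and lymph vessels, rose by 2.14 and Foxe3, of the lens, by 2.15. Sox1, a marker of neural progenitors, was at 1.19 in Min6, 1.52 in aTC, -0.92 in β cells, and -0.49 and -0.87 in pancreas 1 and 2, whereas at Sox11 the lines themselves were apart, at 0.66 in Min6 and 1.86 in aTC with a difference from fresh cells of 1.56 ± 0.34 (SE, adjusted p = 0.033). Sox21 rose by 1.39. Among T-box and Gata genes, Tbr1, a factor of the cortex, rose by 1.96, Tbx3, of limb and heart, by 1.81 and Gata3, of T cells and kidney, by 1.80. Among bHLH factors, Nhlh2 rose by 1.90, Sim2 by 1.47, Tal1, a regulator of blood formation, by 1.44 and Neurod2 by 1.13.

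Signalling and membrane genes had smaller shares of higher islands than the Sox, T-box and Gata, homeobox, Hox and Forkhead lists. Every one of these shares was still above the 8.79% of all islands, of which 3.39% were lower. Of 81 islands of the BMP and TGF-beta pathway 19 were higher (23.5%) and 2 lower (2.47%). Of 81 of the Wnt pathway 12 were higher (14.8%) and 5 lower (6.17%). Sfrp1 and Sfrp5, secreted antagonists of Wnt, rose by 1.98 and 1.73, and Lrp5, a Wnt co-receptor, by 1.97, whereas an island of the ligand gene Wnt3a fell by 1.49. Tgfbr2, the type II receptor of TGF-beta, was at 1.53 in Min6, 1.85 in aTC, 0.21 in β cells, and -0.093 and 0.54 in pancreas 1 and 2. The ligand genes Bmp4 and Gdf7 rose by 1.57 and 1.76, and Fstl4, a follistatin-like gene, by 1.84. Neurotransmitter receptors had 23 higher (25.8%) and 9 lower (10.1%) islands of 89, both well above the shares of all islands. The glutamate receptor gene Grm7 was at 1.21 in Min6, 1.82 in aTC, -0.84 in β cells, and -0.66 and -0.72 in pancreas 1 and 2. Its relative Grm4 was among the largest falls. At Adrb3, an adrenergic receptor of fat, Min6 stood at 1.73 and aTC at 0.13, with a difference from fresh cells of 1.91 ± 0.45 (SE, adjusted p = 0.04). Voltage-gated ion channels (14 higher and 6 lower of 81), guidance genes (17 and 5 of 98), FGF genes (5 and 2 of 41) and solute carriers (30 and 6 of 246) held higher islands at shares of 17.3%, 17.3%, 12.2% and 12.2%, the last 2 near the 8.79% of all islands. Kcna3, a potassium channel, rose by 1.64, Unc5d, a netrin receptor, by 2.30, and Slc18a3, which loads acetylcholine into vesicles, by 2.08.

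Genes that restrain growth were nearer to the background, with 9 higher and 3 lower islands of 70 (12.9% higher). Beside Cdkn2a, Rassf5, a Ras effector, was at 1.23 in Min6, 1.23 in aTC, -0.26 in β cells, and -0.68 and -0.67 in pancreas 1 and 2. At Gadd45b, a stress gene, the β cells were themselves at 0.87 while Min6 and aTC were at 1.65 and 1.91 and pancreas 1 and 2 at -0.40 and -0.39. At this island the β cells lay between lines and pancreas, and the difference was 1.76 ± 0.40 (SE, adjusted p = 0.036).

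Genes of the islet itself held some islands that rose in both lines and several at which 1 line was far above the other. Islet transcription factors direct the formation of β and α cells, and of 61 islands at 28 such genes 9 were higher (14.8%) and 0 lower, beside 8.79% higher and 3.39% lower over all islands. The higher ones lie at Nkx6-2, Hhex, Insm1, Gata6, Sox9, Gata4, Nr5a2 and Onecut1. Hhex, which is needed for the budding pancreas and for δ cells, was at 1.88 in Min6, 1.64 in aTC, -0.39 in β cells, and -0.46 and 0.084 in pancreas 1 and 2 at its promoter island. The difference was 2.01 ± 0.22 (SE, adjusted p = 0.0035). Nkx6-2, a relative of the β cell factor Nkx6-1, was at 2.24 in Min6, 1.88 in aTC, 0.52 in β cells, and -0.46 and -0.19 in pancreas 1 and 2. Sox9, a factor of pancreatic progenitors and ducts, was at 1.62 in Min6, 1.82 in aTC, 0.038 in β cells, and 0.46 and 0.52 in pancreas 1 and 2. Insm1, an endocrine factor, was high in both lines (2.04 and 2.24) but also in β cells (1.31), and only pancreas 1 and 2 were low (0.41 and 0.02). Gata4, Gata6, Nr5a2 and Onecut1 rose by 1.01, 1.49, 0.96 and 0.85. Pax6, an endocrine factor active in both cell types, was below 0 on all 5 arrays at each of its 4 islands except for 0.034 in pancreas 1 at 1 of them. No scored island carries the name of Ins1, Ins2 or Gcg, so the lines could not be checked at their hormone genes.

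Between the lines, 6 islet factor islands were over 1 higher in aTC than in Min6, and 10 were over 1 higher in Min6, of 61 in all. Over all islands 507 (3.79%) were as much higher in aTC and 216 (1.62%) in Min6. Pdx1, which β cells need to express insulin, was at -0.55 in Min6, 1.77 in aTC, -0.31 in β cells, and -0.47 and -0.69 in pancreas 1 and 2 at the island at its start. At the other Pdx1 island aTC was at 1.96 and Min6 at -0.91. Mafa, another β cell activator of insulin, was at -0.22 in Min6, 0.94 in aTC, -0.033 in β cells, and -0.19 and -0.44 in pancreas 1 and 2. Nkx6-1 had an island at 0.87 in aTC and -0.35 in Min6. Its other island, of 12 probes over the start, did not show this. There Min6 was at -0.31, aTC at -0.063, β cells at 0.24, and pancreas 1 and 2 at -0.031 and 0.11. Among the 10 islands over 1 higher in Min6 were islands of Irx1 and Irx2, which are expressed in α cells. Others of the 10 lie at islet factor genes that are not named here. The 11-probe island of Irx1 was at 1.07 in Min6, -0.69 in aTC, -0.21 in β cells, and -0.52 and -0.23 in pancreas 1 and 2, and the 19-probe island of Irx2 at 1.26 in Min6, -0.72 in aTC, 0.24 in β cells, and -0.073 and -0.13 in pancreas 1 and 2. Except at the Nkx6-1 island over the start, 1 line lay above all fresh arrays at these islands and the other near or below them. None of these islands was called higher or lower in the comparison of both lines with fresh cells. Each line was measured on 1 array, so the contrast between them has no replicate and no test, and the islands were named after their values were seen.

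**Figure D5:**
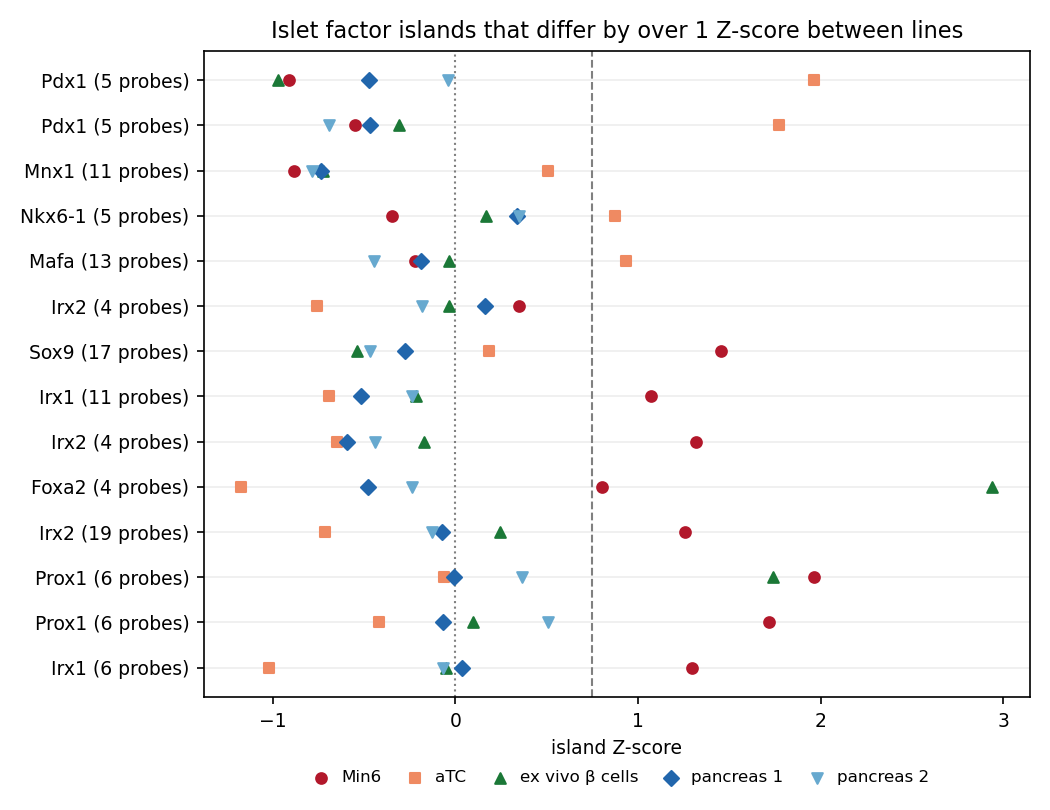
Island Z-scores (x axis) of 14 of the islands of islet transcription factors that differ by over 1 between Min6 and aTC (y axis, gene and number of probes), 1 point per array, ordered by aTC minus Min6, with the levels 0 (dotted) and 0.75 (dashed). Another 2 such islands are not shown. aTC is above Min6 at 5 of the islands shown and Min6 above aTC at 9. aTC is the highest point at Pdx1, Mnx1, Nkx6-1 and Mafa, and Min6 is the highest at both islands of Irx1 and all 3 shown of Irx2. The rest of the 9 lie at other genes of the list.

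Over all islands, 41 were above 0.75 in Min6 alone with aTC and all fresh arrays below 0, and 164 in aTC alone. In the other direction 13 islands were below 0 in Min6 alone and 1 in aTC alone, with the other line and all fresh arrays above 0.75. The hormone and secretion genes of islets had 2 higher and 1 lower island of 19 (10.5% and 5.26%), near the shares of all islands. The island ahead of Gcgr, the glucagon receptor gene, was at 2.20 in Min6, 1.87 in aTC, 0.62 in β cells, and 0.085 and 0.33 in pancreas 1 and 2. Sstr2, a somatostatin receptor, rose by 0.62. Sst, somatostatin itself, the hormone of δ cells, was at -0.30 in Min6, -0.20 in aTC, 0.49 in β cells, and 0.74 and 0.61 in pancreas 1 and 2, so that both lines were below 0 and the fresh arrays between 0.49 and 0.74. The difference was -0.86 ± 0.16 (SE, adjusted p = 0.019). This call was lost with normexp background correction, where the difference was 0.03.

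At genes of other pancreatic cells the counts are to be read beside 8.79% higher and 3.39% lower over all islands. Of 19 islands at acinar and duct genes 4 were higher (21.1%) and 1 lower, with the tight junction genes Cldn3 (difference 1.48) and Cldn4 (1.28) among the former and an island near Pla2g1b, a pancreatic phospholipase, as the latter (-1.39, which turned to 0.054 with normexp). β cells lay between lines and pancreas at Cldn3 (0.54), but below pancreas at Cldn4 (-0.011, with pancreas 1 and 2 at 1.10 and 0.65). At the duct keratin gene Krt7 aTC was at 2.00, Min6 at -0.57, β cells at -0.29 and pancreas 1 and 2 at 1.00 and 1.26, and at Krt19 Min6 was at 1.95 and aTC at -0.87. Neither island was called. Of 23 islands at endothelial, immune and stromal genes 7 were higher (30.4%) and 2 lower. Twist1, a mesenchymal bHLH factor, was at 1.64 in Min6, 1.44 in aTC, -0.63 in β cells, and -0.61 and -0.60 in pancreas 1 and 2. Sox17, an endothelial and endodermal factor, was at 1.20 in Min6, 1.18 in aTC, -0.56 in β cells, and -0.34 and -0.41 in pancreas 1 and 2, and Runx3, a factor of lymphocytes, rose by 1.69. Islands of Cdh5 (VE-cadherin) and Tie1, both endothelial, were lower, with differences of -1.70 and -1.37. No island of this list was called lower on a log2 scale, with a Z-score from medians or with normexp. In these settings 7, 7 and 9 of them were called higher. Whole pancreas holds endothelial, immune and stromal cells, and at Twist1 and Sox17 the sorted β cells were below 0 as the pancreas was. The part of the mix of cells in these differences was not tested.

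The falls were fewer and less complete. Slc1a3 was at -0.68 in Min6, -0.19 in aTC, 2.20 in β cells, and 2.26 and 1.77 in pancreas 1 and 2, with both lines below 0 and all fresh arrays above 1.7. The difference was -2.51 ± 0.23 (SE, adjusted p = 0.0029). Grm4 was at -0.47 in Min6, 0.58 in aTC, 3.04 in β cells, and 2.42 and 2.46 in pancreas 1 and 2. Lpar3, Ephb4, Ntng2 and Ptgfrn were below 0 in Min6 (-0.26, -0.38, -0.36 and -0.10) and above 0.75 in aTC. The difference was -2.73 at Ctnna3, an α-catenin gene, -2.26 at Epx, the eosinophil peroxidase, -2.13 at Fibcd1, -2.06 at Prkcq, a protein kinase C of T cells, and -2.03 at Zfp423, all with line means above 0. The sign of the Ptgfrn difference depended on the background correction (0.19 with normexp, adjusted p = 0.72). All 11 of the largest falls named here lie inside their genes by the array's annotation, and they have 3 to 5 probes each.

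At imprinted and germline genes, sets that are methylated in normal tissue, the median difference was negative under every scaling tried (-1.22 to -0.096 for imprinted and -1.48 to -0.44 for germline genes). At clustered protocadherins, also methylated in fresh cells, it changed sign with the scaling (-0.65 to 0.575). Relative to the median of all islands the difference at imprinted genes ran from -1.07 to 0.12, so that its sign flipped with the scaling. Against the β cells alone, within their scan day, the median difference was 0.062 at imprinted and -0.11 at germline genes, beside -0.16 over all islands. The negative sign at imprinted genes was thus seen only with the pancreas arrays. The same held at germline genes for the fall beyond that of all islands, which was -0.65 with all 5 arrays. Over 41 islands at imprinted genes the median was 1.65 in Min6, 1.41 in aTC, 1.47 in β cells, and 2.55 and 2.68 in pancreas, with β cells between the lines. Of these islands 5 were higher (12.2%) and 4 lower (9.76%), beside 8.79% higher and 3.39% lower over all islands. Igf2, a paternally expressed growth factor, was at 1.24 in Min6, 0.68 in aTC, -0.16 in β cells, and -0.28 and -0.40 in pancreas 1 and 2 at its promoter island, and Dlk1, a Notch-like protein, at 2.01 in Min6, 1.62 in aTC, 0.85 in β cells, and 0.17 and 0.25 in pancreas 1 and 2. An island of Kcnq1, whose locus holds an imprinting control region, was lower with a difference of -1.47, and an island near Usp29 with -1.54. Germline genes, whose promoters are methylated in somatic cells, had 1 higher and 3 lower (10%) islands of 30, with medians of 1.72 and 1.65 in the lines, 1.82 in β cells and 2.87 and 2.84 in pancreas. Piwil1, of the piRNA pathway, was at 0.62 in Min6, 1.53 in aTC, 1.99 in β cells, and 2.88 and 2.67 in pancreas 1 and 2, whereas Dmrt1, a factor of the testis, was at 0.97 in Min6, 1.00 in aTC, -0.25 in β cells, and -0.27 and -0.18 in pancreas 1 and 2 and was gained. On the log2 scale with no division by the SD, 149 of the 453 lower islands were called lower, and with normexp background correction 90 were, while 375 kept a negative difference.

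Housekeeping and regulator sets held smaller shares of higher islands than the 8.79% of all islands. Ribosomal protein genes had 2 higher and 3 lower islands of 90, Zfp genes 11 and 12 of 248, and clustered histone genes 0 and 2 of 27. The lower ones were 3.33%, 4.84% and 7.41% of these lists, beside 3.39% of all islands. None of the 13 islands of clustered protocadherins, which were methylated in fresh cells (median 2.17), was called. Among genes of the methylation machinery 1 of 18 islands was higher, at the promoter of the de novo methyltransferase gene Dnmt3a, with 1.78 in Min6, 1.54 in aTC, 0.96 in β cells, and 0.41 and 0.23 in pancreas 1 and 2. Polycomb subunits had 2 of 36 higher, an island shared by Bmi1 and its neighbour (0.90) and an island of Tlx2 that reaches Pcgf1 (1.01).

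By the array's annotation, higher islands were 15.5% of those downstream of a gene, 12% of those with no class, 8.3% of those inside a gene, 7.84% of those at a promoter and 3.6% of those between divergent promoters. Lower islands were 4.15% of those with no class, 3.92% of those inside a gene, 2.88% of those between divergent promoters, 1.67% of those downstream and 1.5% of those at a promoter. By chromosome, the share of higher islands ran from 6.04% (chromosome 16) to 11.6% (chromosome 19). Among 4637 promoters matched by symbol, those under a higher island had a median of 18 CG dinucleotides in 250 bases, those under a lower island 16 and uncalled ones 18, with upper and lower quartiles that overlapped (12 to 24, 11.5 to 20.5 and 13 to 24). The promoters of Foxd3, Twist1 and Hhex printed above, with 21, 18 and 32, lie at or above that median, and those of Sst and Piwil1 with 8 and 16 at or below the median of the lower ones.

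The higher islands had low means in the other groups of the series. On the arrays outside the comparison, 1172 of them were scored. Their mean was -0.24 ± 0.024 (SD over 5 arrays) in post-implantation embryos, -0.11 ± 0.063 over 14 arrays of other adult tissues, -0.11 ± 0.11 in 3 undifferentiated ES cell samples and -0.15 and -0.11 in 2 teratomas. In ES cells differentiated in vitro it was 0.13 ± 0.046 (5 arrays), above every other group outside the lines, with each array between 0.071 and 0.20. In at least 1 of these differentiated samples 364 of the islands (31.1%) were above 0.75, beside 22.1% of all islands, whereas on the embryo arrays it was 4.1% beside 11.3%. Other adult tissues had 23.6% above it on at least 1 array, beside 17.7% of all islands. In all 5 differentiated samples 7.17% of the higher islands were above that level, less than the 9.99% of all islands. The lower islands had high means in those 5 groups, between 1.31 and 1.58, against 0.61 in the lines and 1.74 in fresh pancreatic cells. These means cover methylated and unmethylated islands. Of the 440 scored, 60.9% were above 0.75 on all embryo arrays and 18.6% below 0 on all of them. In other adult tissues the shares were 56.1% and 12.5%. The islands were chosen by the difference between the lines and fresh pancreatic cells, so values in fresh normal tissue were part of the choice. The means in the other groups are therefore a description and were not tested.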

How the data were processed

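DNA methylation was measured by mDIP on 2-colour Agilent mouse CpG island arrays, bound DNA in Cy5 and input in Cy3, 1 array per sample. In the deposited scanner files the authors' Feature Extraction gave spot intensities and, after background subtraction and linear dye normalization, the log10 ratio of Cy5 to Cy3 that was used here. The deposited value table holds a score that the authors made before deposit, the log ratio standardised per probe according to melting temperature by their methods. Its centring is not stated (column medians -0.269 to -0.131), and it correlated with the scanner ratios with r = 0.93 to 0.991 over probes and served as an alternative. Probe coordinates are mm9, which the headers of the β cell, Min6 and aTC files name, and probes of the other grid were matched by probe name.

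Control and flagged spots (2 to 78 per array), 2471 probes on X or Y, 90 on unplaced sequence and 326 without coordinates were left out. Log10 ratios were standardised per array (mean 0, SD 1) and averaged over islands. Lines and fresh cells were compared with limma 3.58.1 in R 4.3.3 (lmFit and eBayes, prior df 3.74, residual df 3, Benjamini-Hochberg over 13374 islands), and single values per array with an exact permutation test (Python 3.11.15, scipy 1.17.1). The small number of arrays limits the precision. Input signals were 4.5 to 6.73 and bound signals 2.06 to 3.58 times background. In simulated data with these arrays' spread, 200 of 13374 islands were shifted. The fit recovered 18% of shifts of 1 and 66% of shifts of 2, with 85 calls in all. The real data gave 1628 calls, at which the adjustment is less strict, so these rates do not carry over to them. Islands that were not called are not shown to be alike.

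The members of the comparison and all gene lists were chosen with earlier results of these data known. Named islands are the 12 largest called differences with a gene name in each direction whose groups did not overlap, up to 4 called members of each list with the largest difference, all called islet genes and a few islet genes fixed by name, 1 island per gene. Others are named as chosen after their values were seen, or within the count they belong to. Some islands that the rule picks are not reported here, among them 1 of the 12 in each direction. Of 11107 gene names in the files 7957 were current symbols, 1932 were updated through RefSeq synonyms, 961 named divergent pairs and 257 were kept. Alternatives covered the scaling, background correction, probe filters, island rules, test and samples.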

Additional observations from a re-analysis of the deposited data

Results flagged for a closer look

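Among the groups of 4 to 10 arrays outside the comparison, the mean Z-score of all islands had 1 array far from the others in ES cells differentiated in vitro, where the gap between the lowest array and the next was 0.733 of the range of the 5 arrays. Chance alone flags about 1 in 20 groups in this way. The groups of the comparison itself have fewer than 4 arrays and were not examined for such arrays.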

How the results depend on the processing

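The higher islands (1175 of 13374) and lower islands (453) were counted again under each alternative. All 1175 kept a positive difference in every setting in which they were scored. At each of the 1175 both lines lay above all fresh arrays. Settings that only leave out arrays or change the test could therefore not turn the sign, and only those that change the island values could. Without division by the SD (log2 ratios centred on the median) 1430 were higher and 368 lower (79.5% of calls higher, against 72.2%), where the median difference of all islands moved from -0.20 to -0.31. A robust Z-score gave 905 and 208 (81.3%), a minimum of 5 probes 931 and 226 of 8714 (80.5%), and normexp 1356 and 1261 (51.8%). The methods' t-test (equal variance) called 3538 islands at an unadjusted p under 0.05 and 82 higher and 24 lower after Benjamini-Hochberg. With all 34 arrays in the fit there were 1963 and 1687 (53.8%), with slide as a random block in that fit 1629 and 958, and against whole pancreas alone 1940 and 1686. Without both pancreas arrays, and with scan day as a block, limma called 0 in either direction (2480 at an unadjusted p under 0.05). Leaving out each array in turn gave 547 to 1391 higher and 106 to 1102 lower islands, 314 to 641 gained and 5 to 23 lost by level. With both pancreas arrays out 42 were lost. The islands gained by level numbered 190 at a level of 1 in place of 0.75, and lost ones 6 at 0.5 and 0 under normexp, the value table, the filter on dim input and the minimum of 5 probes. The difference in mean Z-score turned to 0.069 with log2 ratios, 0.027 with bright input only and 0.0091 with at least 5 probes. That in the share of islands below 0 turned to 1.25 percentage points with log2 ratios and with the robust Z-score, and to 1.91 without both pancreas arrays. Under normexp the differences at Ptgfrn (0.19), Sst (0.030), Pla2g1b (0.054), Rps10 (0.13) and H4c1 (0.068) turned positive. Of the 109 named islands 81 kept their side of the threshold with log2 ratios, 84 with the robust Z-score and 65 without pancreas 2. The cause of these changes was not tested. Normexp on median signals, the restriction to probes of all 5 arrays, a trend in eBayes and the fits with slide or with β cells or pancreas alone over 34 arrays were chosen after seeing the data. Normexp on mean signals was not run, as mean signals were read on 1 of the 5 arrays, and slide as a random block could not be fitted on 5 arrays. No paired analysis was possible because the lines and the β cells carry no replicate numbers.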
